A study of Arabidopsis thaliana with 9 samples.

Results

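Roots of Arabidopsis seedlings that had flown on an F-104 Starfighter jet and were fixed last, after about 1.5 min of level flight, were compared with roots fixed on the ground. The comparison takes the 3 arrays titled as last-actuated and the 3 titled as ground control, 6 of the 9 arrays of the series, and covers all 16550 genes with a probe set naming a single gene. Of 12 measured small heat shock protein genes 8 were higher in last-actuated roots by the test used, and so were 4 of 10 measured genes of large chaperones and co-chaperones. Of 63 measured transcripts of the chloroplast genome 13 were lower by the test, and the rest had lower means. Of all 16550 genes 0.58% were higher and 0.332% lower by the same test. When only the 6 arrays of these groups were fitted, the 3 counts were 6, 0 and 0. All groups were 10-day-old seedlings of the Wassilewskija background, grown under 24 h light, and all carried the same 14-3-3κ:GFP transgene under the cauliflower mosaic virus 35S promoter. The last-actuated tube went through a climb at 4 g for roughly 30 s, about 10 s of microgravity, a short hyper-g pull-up and then level flight before the fixative RNAlater was released. The first-actuated tube took the same flight and was fixed right after microgravity, and its 3 arrays are used here to estimate the spread and to show where the flight tubes differed. The ground tube was held by a team member and actuated during the flight, while the flight tubes were in the pockets of a flight suit. The 3 replicates of a condition were separate portions of roots from 1 tube. Tube and condition therefore cannot be told apart, and each p-value rests on the spread between portions of one tube. No untransformed line enters the comparison, and the transgene itself was not analysed here.

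Small heat shock proteins bind unfolded proteins and keep them from aggregating, and larger chaperones refold what they hold. Their genes are switched on by heat and by other conditions that unfold proteins, through heat shock transcription factors. Proteins that cannot be refolded are marked with ubiquitin, drawn out of complexes or membranes and degraded. Plastids and mitochondria keep small genomes of their own, which encode part of the photosynthetic and respiratory complexes and part of the ribosomes that make them. Root plastids are mostly not photosynthetic, yet they transcribe the same genome as chloroplasts.

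Levels are normalized log2 expression values, so a difference of 1 is a doubling, and array medians lay between 2.09 and 2.15. Pearson correlations across genes, which are not independent replicates, were 0.984 to 0.989 between last-actuated arrays, 0.976 to 0.984 between ground arrays and 0.968 to 0.987 between the groups. The root-mean-square SD per gene was 0.216 in last-actuated roots, 0.183 in first-actuated roots and 0.260 in ground roots, and the fit pooled these spreads. On the first principal component ground replicates 1, 2 and 3 were at -38.6, -5.05 and -24.7. Last-actuated arrays were at 0.68 to 3.54 and first-actuated arrays at 19.8 to 21.8. The ground arrays were thus strung out, with replicate 2 nearest to the flight arrays and replicate 1 farthest from them. Of 22 root markers 2 were measured. EXPA7, a root hair expansin, was at 4.58 to 4.74 in last-actuated roots and 4.65 to 5.04 in ground roots (log2 difference -0.20, adjusted p = 0.703), and EXPA18, another, differed by 0.06. Neither passed the test, but lack of a call between the groups does not show that the tissue was root. No other root marker was measured. EXPA18 differed from first-actuated roots by -0.90, which passed the test of that difference. The 4 measured of 13 reference genes, AT5G46630 among them at 0.24, differed by -0.10 to 0.24 and limma called none of them, with 0 at an unadjusted p under 0.05.

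By limma with Benjamini-Hochberg adjustment, 151 of the 16550 genes (0.912%) had different levels in last-actuated and ground roots at an adjusted p under 0.05, and 2046 had an unadjusted p under 0.05. Of the 151, 96 (0.58%) were higher and 55 (0.332%) lower in last-actuated roots. In all 96 rises every last-actuated array lay above every ground array, and in all 55 falls below. Over all genes this held for 7.26% and 5.4%. For a called gene, groups without overlap therefore add nothing to the call. The median log2 difference was 0.93 among the 96, with 0.52 the smallest, and -0.88 among the 55, with -0.52 the smallest in size. Over all genes the median was 0.03. Among the 151, 41 rises and 18 falls were of at least 1 on the log2 scale. The median gene mean was 2.15, and 149 of the 151 called genes had a mean above it, as the plot of difference against level shows. The ground mean lay below that value for 3 of the rises and the last-actuated mean for 1 of the falls, and no detection calls were available to place such values above background.

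**Figure D1:**
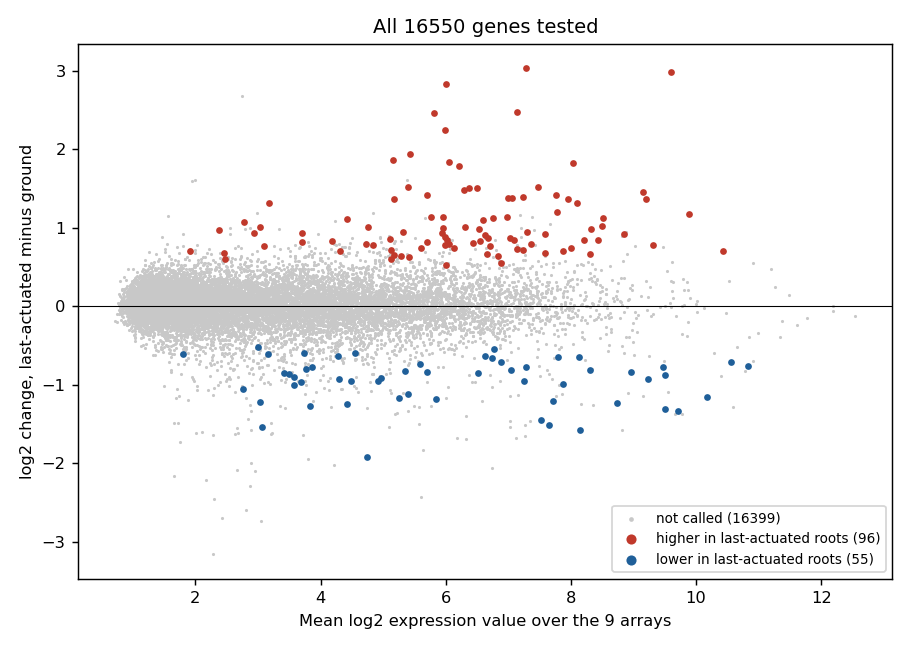
Log2 difference, last-actuated minus ground, against the mean log2 expression value over the 9 arrays, with 1 point per gene. Red points are the 96 genes called higher in last-actuated roots, blue points the 55 called lower and grey points the genes not called, some of which lie farther from 0 than called genes do.

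Of 17 listed small heat shock protein genes 12 were measured, of which 8 rose and 1 fell in last-actuated roots. The median difference was 1.25 and the range -0.61 to 3.03. AT5G37670, for a peroxisomal small heat shock protein, had the largest called rise of any gene. It stood at 8.22, 8.60 and 8.31 in last-actuated replicates 1, 2 and 3, against 5.25, 5.39 and 5.40 in ground replicates 1, 2 and 3. The groups lay about 3 log2 units apart, with no overlap. The difference was 3.03 ± 0.12 (SE), an 8.17-fold rise (limma, adjusted p = 1.93e-06). AT1G52560, another small heat shock protein gene, was at 10.32, 10.33 and 10.35 in last-actuated roots, against 7.50, 7.36 and 7.21 in ground roots. Its last-actuated arrays were nearly equal and all far above the ground arrays, a 7.88-fold rise (adjusted p = 8.46e-07).

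Of the cytosolic class I genes, AT1G53540, AT1G59860 and AT2G29500 rose and AT1G07400 was not called. AT1G53540 was at 7.92, 8.09 and 7.84 in last-actuated roots, against 5.53, 5.80 and 5.11 in ground roots (log2 difference 2.47, adjusted p = 0.000118). AT1G59860 was at 6.77, 6.80 and 6.65 against 5.29, 5.35 and 5.15 in ground roots (1.47, adjusted p = 9.07e-05). AT2G29500 was at 9.04, 8.71 and 8.82 against 7.26, 8.13 and 7.81 in ground roots (1.12, adjusted p = 0.0444). These genes encode related proteins of the same compartment, and the closeness of their sequences was not analysed here. Each call was tried again in 9 fits that each left out 1 array. Among the named genes, the calls that held in all 9 were those with the smallest adjusted p, so holding is not separate support. The call of AT2G29500 was lost in these fits unless the array left out was ground replicate 2 (adjusted p = 0.0631 to 0.158). Those of AT1G53540 and AT1G59860 held without each array in turn. AT1G07400 was bright in both groups, at 11.06 ± 0.0655 in last-actuated roots and 10.51 ± 0.273 in ground roots (SD, n = 3 each; log2 difference 0.55, limma adjusted p = 0.123).

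Other small heat shock protein genes rose as well. ATHSP22.0, of the endoplasmic reticulum, was at 6.66, 6.58 and 6.51 in last-actuated roots, against 4.42, 3.39 and 4.56 in ground roots (2.46, adjusted p = 0.00206). Its ground arrays spread over more than 1 log2 unit and all stayed below the last-actuated arrays. AT5G51440, a mitochondrial member, was at 7.70, 7.79 and 7.82 against 6.82, 6.96 and 6.78 in ground roots (0.92, adjusted p = 0.00339), and AT1G54050 rose by 1.38 (adjusted p = 0.000875). AT2G19310, at 0.94 (adjusted p = 0.165), and AT5G54660, at 0.16 (adjusted p = 0.573), were not called, though their last-actuated arrays also lay above all ground arrays.

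The 1 listed member that fell was a dim gene. AT4G21870 was at 1.71, 1.68 and 1.50 in last-actuated roots, against 2.23, 2.40 and 2.09 in ground roots (-0.61, adjusted p = 0.0338). The last-actuated level lies below the median gene mean, and the call was lost unless the array left out was ground replicate 2 (0.0519 to 0.123). Counts for the list were 7 to 10 higher and 0 or 1 lower without each array in turn, and 6 higher and 0 lower when the fit held only the arrays of these groups.

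Of the 12 genes, 1 passed the test of the difference between the flight tubes. AT1G52560 was lower in last-actuated roots than in first-actuated roots, at 10.34 ± 0.0141 against 11.10 ± 0.024 (SD, n = 3 each), a difference of -0.76 (adjusted p = 0.00605). In that comparison limma called 371 of the 16550 genes (2.24%), 163 higher (0.985%) and 208 lower (1.26%) in last-actuated roots, and it uses the same last-actuated arrays as the comparison with ground. AT5G37670 differed between the flight tubes by 0.25 (adjusted p = 0.416), AT1G53540 by -0.04 (0.954) and ATHSP22.0 by -0.13 (0.886). The median of the 12 genes for that difference was -0.11.

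**Figure D2:**
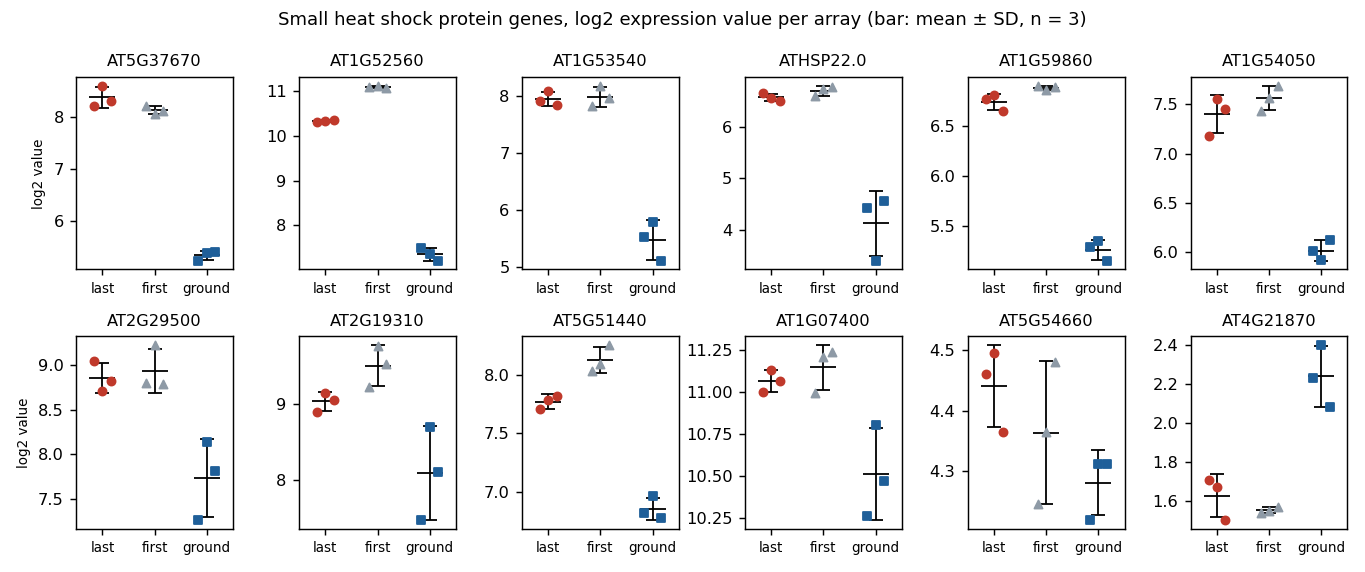
Log2 expression value per array of the 12 measured small heat shock protein genes in last-actuated (red), first-actuated (grey) and ground (blue) roots, 1 panel per gene with its own axis, which does not start at 0. Bars are the mean ± SD of 3 arrays. In 11 panels all last-actuated arrays lie above all ground arrays, and in that of AT4G21870 they lie below, against 7.26% of all genes above and 5.4% below.

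Of 35 listed large chaperones and co-chaperones 10 were measured, of which 4 rose and 0 fell, with a median difference of 0.58. AT5G48570 encodes ROF2, a peptidyl-prolyl isomerase that binds heat shock chaperones. It was at 10.16, 10.47 and 10.36 in last-actuated roots, against 8.94, 9.42 and 9.11 in ground roots (1.17, adjusted p = 0.0043). The groups did not overlap, and the call held without each array in turn. Fes1A, a nucleotide exchange factor of Hsp70 chaperones, was at 8.62 ± 0.0568 against 7.78 ± 0.207 in ground roots (SD, n = 3 each; 0.84, limma adjusted p = 0.0122). AT2G20560, a DNAJ co-chaperone, rose by 0.92 (adjusted p = 0.0351) and Hop3, which links Hsp70 to Hsp90, by 0.70 (adjusted p = 0.047). The call of Fes1A was lost without last-actuated replicate 2 or 3 or ground replicate 3 (adjusted p up to 0.0628), and those of AT2G20560 and Hop3 unless the array left out was ground replicate 2 (up to 0.140 and 0.161). Hop2 was at 0.48 (adjusted p = 0.155) and AT3G09440, an Hsp70, at 0.31 (0.293), neither called. Hop1, of the same family as Hop2 and Hop3, was at -0.45 (0.412) with overlapping groups. Only AT5G48570 stayed called without last-actuated replicate 2 or 3 or ground replicate 3, and 0 of the 10 were called when the fit held only these groups.

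Of 19 listed heat shock factors and heat acclimation genes 2 were measured, and both rose. AT1G72660, a GTPase of the family of developmentally regulated G proteins, was at 6.86, 6.61 and 6.73 in last-actuated roots, against 4.26, 4.60 and 4.63 in ground roots (2.24, 4.72-fold, adjusted p = 4.68e-05). HSA32, which is needed for long-lasting acquired thermotolerance, was at 7.38, 8.07 and 7.87 against 6.08, 6.52 and 6.17 in ground roots (1.52, 2.87-fold, adjusted p = 0.00458). Last-actuated replicate 1 was the lowest of its group for HSA32 and still above every ground array. The annotated span of HSA32 overlaps that of AT4G21323, which rose by 0.98 (adjusted p = 0.0293), so signal of this pair may be shared. The call of AT4G21323 was lost without last-actuated replicate 2 or 3, first-actuated replicate 2 or 3, or ground replicate 1 or 3 (up to 0.132).

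Outside the lists, 14 called genes with known parts in folding, unfolding or degrading proteins were picked after their values were seen, so their number supports nothing and only their values are given. AT4G15420, of the UFD1 family that works with the segregase CDC48, was at 8.31, 8.49 and 8.45 in last-actuated roots, against 6.50, 6.70 and 6.59 in ground roots (1.82, adjusted p = 7.43e-05). AT4G27680, an AAA-ATPase, was at 6.49, 6.81 and 6.55 against 5.13, 5.17 and 5.02 in ground roots (1.51, adjusted p = 0.000322). SAY1, a UBX-domain protein gene, was at 7.31, 7.33 and 7.53 against 6.00, 6.10 and 5.93 in ground roots (1.38, adjusted p = 0.000322). Each of these 3 groups of last-actuated arrays lay more than 1 log2 unit above its ground arrays. AT1G30070, with an SGS domain, rose by 1.46 (adjusted p = 0.000214), AT1G66080, related to the Hsp70 importin Hikeshi, by 0.83 (0.00824), and AT3G12050, an Hsp90 activator of the Aha1 type, by 0.67 (0.0095). The calls of these 6 held without each array in turn.

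The other 8 genes of the hand-picked set lost their calls without some arrays. DER1 encodes Derlin-1, of degradation at the endoplasmic reticulum, and was at 8.09, 7.90 and 8.01 in last-actuated roots, against 7.26, 7.36 and 7.16 in ground roots (0.74, adjusted p = 0.014). AT5G51740, an OMA1-like mitochondrial peptidase, rose by 0.85 (0.0119), AT5G58110, a chaperone-binding ATPase activator, by 1.14 (0.0106), and AT4G32208 and AT1G11660, of the Hsp70 family, by 0.85 (0.0148) and 0.71 (0.0215). AT1G01940, a cyclophilin, rose by 0.67 (0.0157), AT4G23040, with a ubiquitin-like domain, by 0.63 (0.0297), and AT4G28480, a DNAJ protein, by 0.52 (0.0393). The call of each of these 8 was lost without last-actuated replicate 3. Those of DER1, AT1G01940 and AT1G11660 were also lost without last-actuated replicate 1, and those of AT5G51740, AT4G32208 and AT1G01940 without last-actuated replicate 2. Without ground replicate 3 the calls of DER1, AT5G58110, AT4G32208 and AT1G11660 were lost, and AT1G11660 also lost it without ground replicate 1 or first-actuated replicate 3. The highest adjusted p over these fits was 0.0601 to 0.0960 for the 6 genes just named. AT4G23040 lost its call unless the array left out was ground replicate 2 or first-actuated replicate 1 or 3 (up to 0.130), and AT4G28480 unless the array left out was ground replicate 2 (up to 0.123).

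Other genes among the 15 largest rises have more varied or unknown roles. AT1G44414 was at 6.38, 6.47 and 6.68 in last-actuated roots, against 3.95, 3.77 and 3.33 in ground roots (2.83, 7.09-fold, adjusted p = 3.71e-05). AT3G07150 was at 5.87, 5.91 and 5.82 against 4.09, 4.08 and 3.63 in ground roots (1.93, adjusted p = 0.000108). AT5G07330 was at 5.93, 6.20 and 6.10 against 4.54, 3.90 and 4.27 in ground roots (1.84, adjusted p = 0.000939). No role is given here for these 3, and in each the groups stood more than 1 log2 unit apart. AT1G52870, of the Mpv17 and PMP22 family of peroxisomal membrane proteins, rose by 1.86 (adjusted p = 0.00254) and AT2G30480 by 1.50 (0.00212). AT5G37340, a zinc finger protein of the ZPR1 family, was at 6.72 on every last-actuated array, against 5.25, 5.28 and 4.27 on the ground (1.79, adjusted p = 0.00771). Its SD of 0 in last-actuated roots comes from equal deposited values, so the spread of that group may be understated. Why the values are equal is not known. The calls named in this paragraph held without each array in turn.

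Several of these rises were smaller than in the first-actuated tube. AT1G72760, a protein kinase gene, was at 2.55, 2.94 and 3.11 in last-actuated roots, against 1.71, 1.48 and 1.48 in ground roots (1.31, adjusted p = 0.00527), and at 5.09 ± 0.201 (SD, n = 3) in first-actuated roots. It lay between the other tubes, below the first-actuated mean by 2.22 (adjusted p = 0.000485), and its ground level is below the median gene mean. AT5G07330 was lower than in first-actuated roots by 1.76 (0.00157), AT5G66090 by 1.11 (0.00292) and AT5G42150, of the glutathione S-transferase family, by 1.21 (0.00157). Against ground AT5G66090 rose by 0.94 (0.00655) and AT5G42150 by 0.99 (0.00358). AT1G50110, a branched-chain amino acid aminotransferase, rose by 1.42 (0.00149), AT4G13550, a heat-inducible lipase of plastids, by 0.79 (0.00514), and AT1G67360, a protein of lipid droplets, by 0.93 (0.00339). Their differences from first-actuated roots were -1.16 (0.00414), -0.56 (0.0183) and -0.63 (0.0163). AT1G67360 had equal values, 6.04, on all last-actuated arrays. All calls against ground in this paragraph held without each array in turn.

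Some genes called against ground were also higher than in the first-actuated tube, and 6 of them are described here. AT5G42200, a RING finger protein gene of the hypoxia list, was at 6.49, 6.60 and 6.16 in last-actuated roots, against 4.95, 4.77 and 4.98 in ground roots (1.52, adjusted p = 0.00149). First-actuated roots had 4.86 ± 0.216 (SD, n = 3), so last-actuated roots were higher by 1.56 (0.00157). AT1G02610, another RING protein gene, was at 5.26, 5.08 and 5.12 against 3.74, 4.26 and 4.15 in ground roots (1.11, adjusted p = 0.00863), and higher than in first-actuated roots by 1.07 (0.00738). DI21, a drought-induced gene, was at 7.44, 8.19 and 7.59 against 6.53, 6.72 and 6.55 in ground roots (1.13, adjusted p = 0.0233), and above first-actuated roots by 1.14 (0.0143). AT3G25719 rose by 1.07 (0.00963) against ground and 1.17 (0.00476) against first-actuated roots. TET5, a tetraspanin, rose by 0.60 (0.0339) and 0.58 (0.0242), and AT2G25980, a jacalin lectin, by 0.68 (0.0293) and 0.70 (0.0162). For these 6, first-actuated roots differed from ground roots by -0.09 to 0.04. AT5G42200 and AT1G02610 kept their calls against ground without each array in turn. AT3G25719 lost its call without last-actuated replicate 2 (0.0563), and DI21 lost it without last-actuated replicate 3, first-actuated replicate 1 or 3, or ground replicate 1 or 3 (up to 0.113). TET5 and AT2G25980 lost theirs unless the array left out was first-actuated replicate 3 or ground replicate 2 (up to 0.136 and 0.113).

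Lists of other signalling and stress pathways had 0 to 2 called genes each, out of 1 to 14 measured. Of all 16550 genes 0.58% were called higher and 0.332% lower, and counts from lists this small say little beside these shares. Of 20 listed touch and calcium signalling genes 6 were measured. Limma called 0 of them against ground, and 0 had an unadjusted p under 0.05. Their median difference was 0.13, and CML38, a calmodulin-like protein gene with the smallest p, was at 4.84, 3.93 and 3.88 in last-actuated roots, against 3.85, 3.43 and 4.08 in ground roots (0.43, adjusted p = 0.545). STZ, a zinc finger repressor induced by many stresses, differed from ground by -0.05 (0.949) and from first-actuated roots by -0.99 (0.0231). AT4G34150, a calcium-dependent lipid-binding protein gene, differed from ground by 0.09 (0.818) and from first-actuated roots by -0.87 (0.00781). In both, the last-actuated and ground arrays overlapped.

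Of 34 listed hypoxia genes 14 were measured, of which 2 rose and 0 fell, with a median of -0.08. Over all genes 0.58% rose and 0.332% fell. Besides AT5G42200, AT3G03270, a universal stress protein gene known as HRU1, was at 5.24, 5.22 and 5.22 in last-actuated roots, against 4.76, 4.41 and 4.55 in ground roots (0.66, adjusted p = 0.0293). The call was lost unless the array left out was ground replicate 1 or 2 (up to 0.117). AT4G27450 and AT1G19530, both known to respond to low oxygen, differed from ground by 0.18 (0.642) and 0.49 (0.266), and were above first-actuated roots by 1.00 (0.00605) and 0.82 (0.0377). Of 29 listed auxin genes 6 were measured and 1 rose. LBD16, which acts in the initiation of lateral roots, was at 7.73, 7.28 and 7.57 against 6.79, 6.93 and 6.73 in ground roots (0.71, adjusted p = 0.0312), and its call was lost unless the array left out was last-actuated replicate 2 or ground replicate 2 (up to 0.136). GH3.3, which conjugates auxin to amino acids, was at 0.59 (0.326) with overlapping groups.

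Of 24 listed abscisic acid, cold and drought genes 7 were measured and limma called 0, with 1 at an unadjusted p under 0.05. That 1 was KIN1, at 4.71, 4.44 and 4.32 in last-actuated roots, against 3.33, 4.11 and 3.77 in ground roots (0.75, adjusted p = 0.12). The 2 measured of 19 redox genes and the 1 measured of 15 clock genes, GI, were not called (AT2G21640 at 0.14 and GI at -0.11), with 0 at an unadjusted p under 0.05. No member of the lists for ethylene and jasmonate (18), sugar and energy starvation (11) or aquaporins and ion transport (19) had a single-gene probe set, so these were not analysed here. Called genes outside any list included CYP71B34, a cytochrome P450 at 2.93, 2.75 and 2.72 against 1.79, 1.90 and 1.79 in ground roots (0.97, adjusted p = 0.00339). UGT73B4, a glycosyltransferase gene, rose by 0.74 (0.0312) and AT5G28520, a jacalin lectin, by 0.81 (0.0293). The call of CYP71B34 held without each array in turn. That of UGT73B4 was lost unless the array left out was ground replicate 2 or 3 (up to 0.117), and that of AT5G28520 unless the array left out was first-actuated replicate 1 or ground replicate 2 (up to 0.135). CYP71B34 is dim in ground roots, below the median gene mean.

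Transcripts of the chloroplast genome had lower means in last-actuated roots. Of 63 measured chloroplast-encoded genes 63 had a negative difference, with a median of -1.11 and a range of -2.06 to -0.12, and 13 fell past the threshold. For 50 of the 63 all last-actuated arrays lay below all ground arrays, against 5.4% of all genes. The size of the difference turned on which ground arrays were used. Taken against the 9-array mean of each gene, the median level of the 63 was -0.48, -0.43 and -0.48 in last-actuated replicates 1, 2 and 3, against 1.22, -0.01 and 0.82 in ground replicates 1, 2 and 3. First-actuated replicates 1, 2 and 3 were at -0.27, -0.15 and -0.20. The median difference of last-actuated from first-actuated roots was -0.27. Ground replicate 2 was nearer to the last-actuated arrays than to ground replicate 1. The fit gave each gene 1 spread for the 3 groups, though the groups could differ widely. For atpI the SD was 0.083 in last-actuated, 0.051 in first-actuated and 0.751 in ground roots. The median difference was -1.44 with 54 calls without ground replicate 2, and -0.84 with 4 calls without ground replicate 1. Of the 63, 0 were called without last-actuated replicate 1 or 2, 1 without last-actuated replicate 3 or ground replicate 3, and 2 or 3 without a first-actuated array. The count was 0 when only these groups entered the fit, 2 after cyclic loess normalization, 3 with every probe set tested and 5 with the replicate number as a block. It was 11 with quantile normalization repeated, 16 with a trend in the moderation, 18 and 28 with genes above the lower quartile and the median of gene means, and 21 with array weights.

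Of 32 listed shoot markers 6 were measured, of which 0 rose and 2 fell, with a median difference of -0.25, and none was listed at 0. The other 4 did not pass the test, and 2 of these had a positive difference. Against the 9-array mean of each gene, the median level of the 6 was -0.03, -0.12 and -0.15 in last-actuated replicates 1, 2 and 3, against 0.58, -0.04 and 0.01 in ground replicates 1, 2 and 3. Ground replicate 1 stood above the other arrays, and without it the median difference was -0.04 with 1 call. Their summed linear level was 153 to 157 in last-actuated roots, against 178 to 238 in ground roots and 155 to 171 in first-actuated roots. The 14 measured nuclear photosynthesis genes, a set gathered after values were seen, summed to 315 to 319 in last-actuated roots, against 379 to 608 in ground roots. In first-actuated roots they summed to 381 to 394, within the ground range. Roots had been cut from shoots after fixation, and the part of shoot tissue in the result was not tested. In whole-root RNA, fewer cells of a type and less RNA per cell cannot be told apart.

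**Figure D3:**
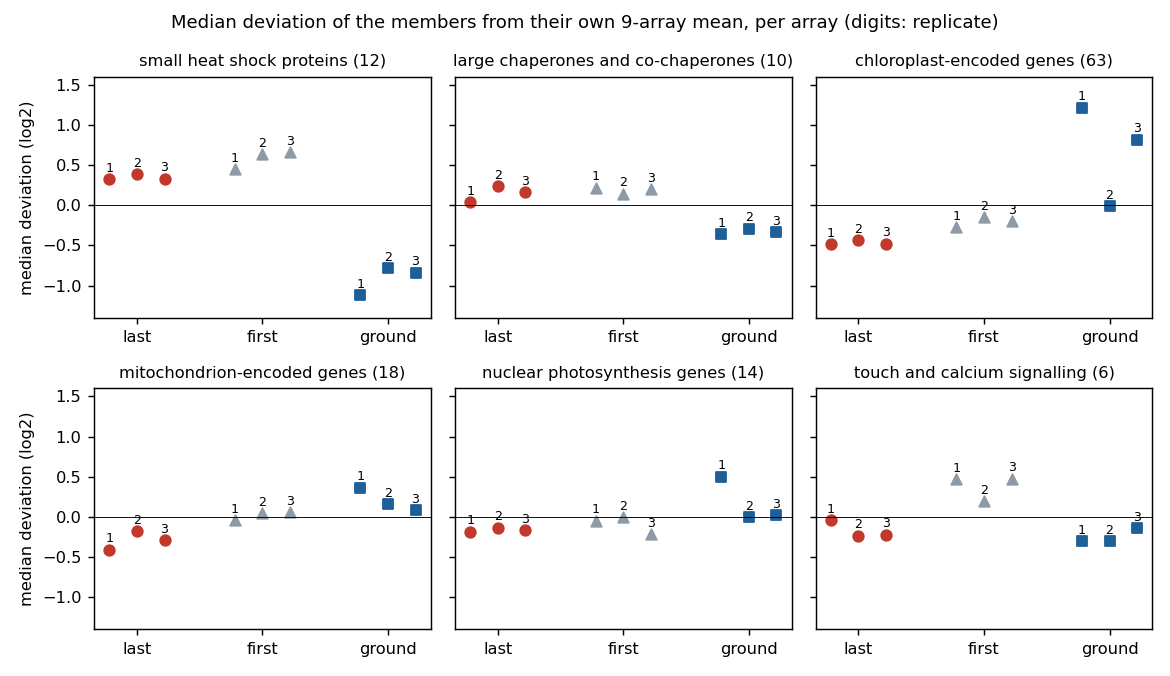
Median deviation of the members of 6 lists from the 9-array mean of each gene, in log2 units, for each last-actuated (red), first-actuated (grey) and ground (blue) array, with the replicate number above the point and the number of measured members in the panel title. Small heat shock protein genes sit at 0.33 to 0.39 in last-actuated roots and at -1.12 to -0.78 in ground roots, while chloroplast-encoded genes spread from -0.01 to 1.22 over the ground arrays.

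Of 5 photosystem I genes of the chloroplast genome 2 fell, with a median of -1.15. psaB, which encodes a core protein of the reaction centre, was at 9.34, 9.51 and 9.64 in last-actuated roots, against 11.00, 10.42 and 10.53 in ground roots (-1.15, adjusted p = 0.0106). psaA, its partner in the core, was at 8.03, 8.06 and 8.17 against 9.86, 8.90 and 9.20 in ground roots (-1.23, adjusted p = 0.0221). In both, ground replicate 2 was the lowest ground array and still above every last-actuated array. psaB was also lower than in first-actuated roots, by 0.90 (0.0206), the only fall called among the 63 genes in that comparison. A photosystem II gene was the only rise called there. The call of psaB against ground was lost without last-actuated replicate 1 or 2 (up to 0.0562) and that of psaA unless the array left out was ground replicate 1 or 2 (up to 0.0976). psaC was at -1.68 (adjusted p = 0.0754).

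Of 13 photosystem II genes 5 fell, with a median of -0.85. psbK and psbZ, small subunits, fell by 1.34 (adjusted p = 0.0239) and 1.45 (0.0271). psbZ was at 6.85, 6.80 and 6.90 in last-actuated roots, against 8.84, 7.63 and 8.45 in ground roots, so the ground arrays spread over more than 1 log2 unit. psbE and psbF, which encode the subunits of cytochrome b559, fell by 0.71 (0.0328) and 0.76 (0.022), and psbL, from the same gene cluster, by 0.85 (0.0263). psbA, the gene of the rapidly replaced D1 protein, was at 12.33, 12.50 and 12.55 against 12.58, 12.69 and 12.48 in ground roots (-0.12, adjusted p = 0.689). It lay closest to 0 of the 63 genes, and its groups overlapped. The calls of psbK, psbZ and psbE were lost unless the array left out was ground replicate 2 (up to 0.135), that of psbL unless the array left out was ground replicate 1 or 2 (up to 0.108), and that of psbF unless the array left out was first-actuated replicate 1 or 2 or ground replicate 2 (up to 0.0989).

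Of 6 cytochrome b6f genes 1 fell, petA, which encodes cytochrome f, at 8.44, 8.55 and 8.53 in last-actuated roots, against 9.60, 9.12 and 9.31 in ground roots (-0.84, adjusted p = 0.014). Of 4 ATP synthase genes 2 fell, atpI by 1.58 (0.0393) and atpA by 1.30 (0.0401). Of 10 genes of the NDH complex, which carries electrons around photosystem I, 1 fell, ndhD, by 1.51 (0.0221), with a class median of -1.48. ndhG had the largest difference of the class, -1.95 (0.208), from values of 3.29, 3.44 and 2.96 in last-actuated roots, against 6.56, 3.44 and 5.53 in ground roots. Its ground replicate 2 was at the level of last-actuated replicate 2. The call of petA was lost without any last-actuated array, taken singly, or without ground replicate 3 (up to 0.0628), and those of atpI, atpA and ndhD unless the array left out was ground replicate 2 (up to 0.161, 0.161 and 0.116).

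Genes for expressing the plastid genome had lower means too. Of 13 plastid ribosome genes 2 fell, rps14 by 0.99 (adjusted p = 0.0338) and rps4 by 0.93 (0.0338), with a median of -1.14. Both calls were lost unless the array left out was ground replicate 2 (up to 0.140). The 4 genes of the plastid-encoded RNA polymerase had a median of -1.48 and limma called 0, with rpoC2, at -2.06 (0.0671), the largest difference of the 63. rpoC2 was at 5.90, 5.67 and 6.04 in last-actuated roots, against 8.95, 6.70 and 8.15 in ground roots. By gene cluster, a set transcribed together, medians ran from -0.76 for psbB, psbT, psbH, petB and petD and -0.80 for psbE, psbF, psbL and psbJ to -1.69 for rpoB, rpoC1 and rpoC2. Those of psaA, psaB and rps14 and of rps2, atpI, atpH, atpF and atpA were -1.15 and -1.30, and that of ndhC, ndhK and ndhJ was -1.03. Genes of a cluster share a transcript, so their calls are not independent of each other.

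**Figure D4:**
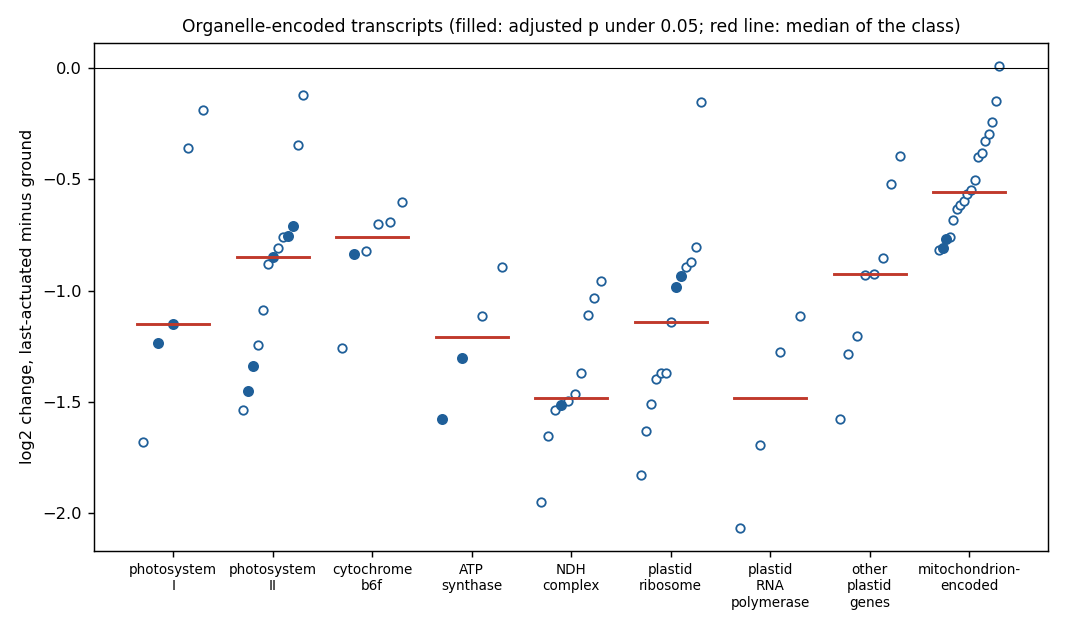
Log2 difference, last-actuated minus ground, of each measured chloroplast-encoded gene by complex and of the mitochondrion-encoded genes, with filled points for genes called at an adjusted p under 0.05 and a red line at the class median. All 63 chloroplast points and 17 of the 18 mitochondrial points lie below 0, and class medians run from -1.48 to -0.56.

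Mitochondrial transcripts had a smaller median difference, and their ground arrays lay closer together. Of 18 measured genes of the mitochondrial genome 17 had a negative difference, 16 lay below all ground arrays and 2 fell, with a median of -0.56. Over all genes 5.4% lay below all ground arrays and 0.332% fell. Their median deviation was -0.41, -0.18 and -0.29 in last-actuated replicates 1, 2 and 3, against 0.36, 0.15 and 0.09 in ground replicates 1, 2 and 3. orfX, which encodes a membrane protein of the twin-arginine translocation family, was at 7.67, 7.92 and 7.91 in last-actuated roots, against 8.63, 8.58 and 8.72 in ground roots (-0.81, adjusted p = 0.00655). It kept its call without each array in turn and was below first-actuated roots by 0.61 (0.0175). nad2, of respiratory complex I, fell by 0.77 (0.0475), a call lost unless the array left out was ground replicate 2 (up to 0.157). rpl2, a ribosomal protein gene and the 1 member above 0, differed by 0.01 (0.984). The count of calls was 4 without ground replicate 2 and 1 without any other 1 array.

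Chromosome 2 carries near-identical copies of mitochondrial genes, and 51 loci of that stretch were measured. Of these 46 had a negative difference and 4 fell, against 0.332% of all genes, with a median of -0.49. Since signal may come from the mitochondrial genes themselves, its source is uncertain. AT2G07689, annotated as a NADH dehydrogenase chain, was at 6.94, 6.82 and 7.26 in last-actuated roots, against 8.43, 8.18 and 8.03 in ground roots (-1.21, adjusted p = 0.00458). AT2G07830 fell by 0.95 (0.00847), AT2G07775 by 1.18 (0.0142) and AT2G07705 by 1.17 (0.0266). AT2G07689 was also lower than in first-actuated roots, by 0.93 (0.0119). The calls of AT2G07689 and AT2G07830 held without each array in turn. That of AT2G07775 was lost without last-actuated replicate 1 or 2 or ground replicate 3 (up to 0.0699), and that of AT2G07705 unless the array left out was first-actuated replicate 2 or ground replicate 2 (up to 0.0889).

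Some nuclear genes of photosynthesis were lower. The 14 measured were gathered after values were seen, so their count and median support nothing and are given as values only. Of these 2 fell, against 0.332% of all genes, with a median of -0.25. PSAE-1, a subunit of photosystem I, was at 2.88, 2.27 and 2.25 in last-actuated roots, against 4.72, 3.55 and 3.74 in ground roots (-1.53, adjusted p = 0.0373). LHB1B2, a light-harvesting protein gene, was at 2.33, 2.73 and 2.54 against 3.91, 3.32 and 4.01 in ground roots (-1.22, adjusted p = 0.014). LHCB4.1, another light-harvesting gene, was at 4.92, 4.86 and 4.88 against 4.89, 4.86 and 4.87 in ground roots, a difference of 0.01. RCA, which encodes Rubisco activase, was at -0.21 (0.524), TROL, of the thylakoid membrane, at -0.96 (0.0717) and PSBW, of photosystem II, at -1.28 (0.151). The call of PSAE-1 was lost unless the array left out was ground replicate 1 or 2 (up to 0.146) and that of LHB1B2 without last-actuated replicate 1 or 3 or ground replicate 1 or 3 (up to 0.0674).

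Other nuclear genes of plastid proteins fell as well, and most of them were named once their values were known. AT5G24490, a plastid ribosome-associated protein gene of the shoot marker list, was at 4.79, 4.68 and 4.79 in last-actuated roots, against 6.02, 5.45 and 5.63 in ground roots (-0.95, adjusted p = 0.0184). AT1G44000, related to the chlorophyll degradation factor STAY-GREEN, fell by 1.27 (0.0257) and AT5G08050, known as RIQ1 and acting in the stacking of grana, by 1.00 (0.0213). AT1G12250, a thylakoid protein with pentapeptide repeats, fell by 0.90 (0.0431) and Mfl1, a plastid carrier related to mitochondrial iron carriers, by 0.62 (0.0352). In each of these the last-actuated arrays lay below all ground arrays, as in every called fall. The calls of AT1G44000 and Mfl1 were lost unless the array left out was ground replicate 2 (up to 0.102 and 0.136), and that of AT1G12250 unless the array left out was last-actuated replicate 1 or ground replicate 2 (up to 0.152). AT5G24490 lost its call without any last-actuated array, taken singly, or without ground replicate 3 (up to 0.0860) and AT5G08050 without last-actuated replicate 3, first-actuated replicate 1 or 2, or ground replicate 1 or 3 (up to 0.0660).

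The largest called fall was that of AT1G13670, for which no role is given here. It was at 4.59, 4.45 and 4.22 in last-actuated roots, against 5.62, 6.63 and 6.76 in ground roots (-1.92, adjusted p = 0.0142). Here ground replicate 1 was the lowest ground array, and the call was lost without any last-actuated array, taken singly, or without ground replicate 3 (up to 0.0786). AT1G22430, an alcohol dehydrogenase-like gene, fell by 1.25 (0.0213), a call lost without any 1 last-actuated or first-actuated array (up to 0.0956). AT4G27657 was at 3.21, 2.97 and 2.99 against 3.54, 3.99 and 3.96 in ground roots (-0.77, adjusted p = 0.0418), and at 4.70 ± 0.148 (SD, n = 3) in first-actuated roots, above both. Its call against ground was lost unless the array left out was ground replicate 1 (up to 0.159).

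Receptor, transport and cell wall genes were among the other falls. AT3G08680, a leucine-rich repeat receptor kinase gene, was at 5.52, 5.14 and 5.45 in last-actuated roots, against 6.19, 6.23 and 6.23 in ground roots (-0.84, adjusted p = 0.00944). The 3 ground arrays were close together, and the call held without each array in turn. SWEET11, a sucrose exporter, was at 6.79, 6.87 and 6.91 against 7.32, 7.89 and 7.68 in ground roots (-0.77, adjusted p = 0.0393). tny, which encodes the AP2/ERF transcription factor TINY, fell by 0.92 (0.0119), AT3G23530, a cyclopropane fatty acid synthase gene, by 0.97 (0.013), and AT5G59740 and AT1G77610, of the nucleotide sugar transporter family, by 1.05 (0.0142) and 0.95 (0.0221). Among cell wall genes AT4G18670, the leucine-rich repeat extensin LRX5, fell by 0.79 (0.0221), AT3G07850, of the polygalacturonase family, by 0.88 (0.0253) and AT5G19890, a class III peroxidase gene with equal values on the last-actuated arrays, by 0.52 (0.0431). The calls of tny and AT3G23530 were lost without last-actuated replicate 2 or 3 or ground replicate 3 and that of AT5G59740 without last-actuated replicate 1 or 3 or ground replicate 3 (up to 0.0749). AT4G18670 lost its call without any last-actuated array, taken singly, or without ground replicate 1 or 3, and AT1G77610 without first-actuated replicate 2 or 3 or any 1 last-actuated array (up to 0.0941 and 0.0976). AT3G07850 lost it without last-actuated replicate 1 or 2, any 1 first-actuated array or ground replicate 1 (up to 0.0939). SWEET11 lost it unless the array left out was ground replicate 1 or 2, and AT5G19890 unless the array left out was ground replicate 2 (up to 0.146 and 0.140).

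The rises and the falls differed in how many calls held when 1 array was left out. Of the 96 rises 38 were called in all 9 fits that each left out 1 array, and of the 55 falls 4 were, which are AT2G07689, AT2G07830, AT3G08680 and orfX. Among the named called genes, those that held in all 9 fits had an adjusted p of at most 0.0095 with all arrays (limma). The other named called genes had 0.0096 or more. The contrast between rises and falls therefore restates their adjusted p and is not separate support. The number of falls was 268 without ground replicate 2 and 8 to 30 without any other 1 array, and the number of rises 240 and 41 to 64. Leaving out a first-actuated array does not change the difference from ground, yet it gave 63 or 64 rises and 21 or 22 falls. A lost call therefore need not mean that the difference rested on the array left out. Without ground replicate 2, 147 of the 151 calls remained. When only the last-actuated and ground arrays entered the fit, 28 genes were called, 27 higher and 1 lower, of which 26 and 1 were among the 96 and the 55. The 6 small heat shock protein genes still called there were AT5G37670, AT1G52560, AT1G53540, AT1G59860, AT1G54050 and AT5G51440, and the 1 fall was AT3G23530. The bars of calls with and without each array show this split.

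**Figure D5:**
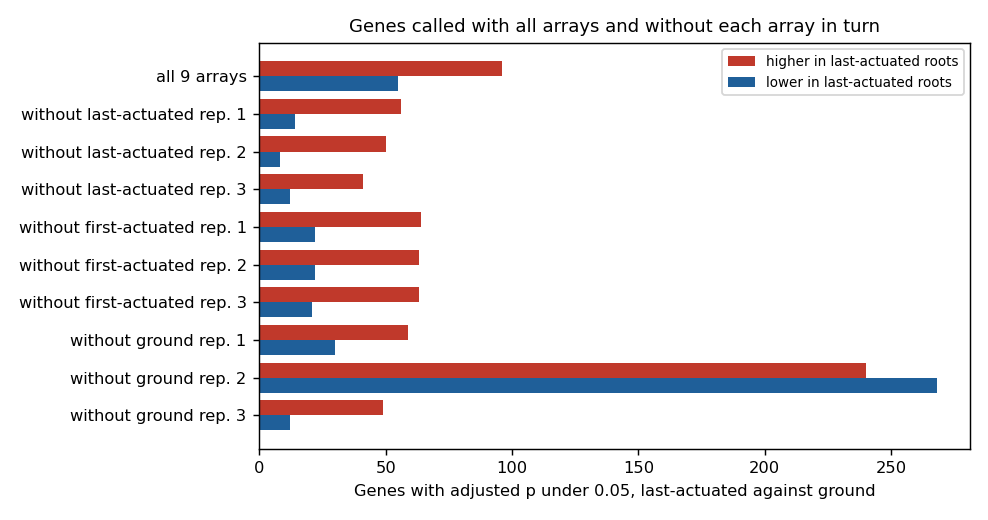
Number of genes called at an adjusted p under 0.05, last-actuated against ground, with all 9 arrays and without each array in turn, for genes higher (red) and lower (blue) in last-actuated roots. Leaving out ground replicate 2 raises the counts to 240 higher and 268 lower, and leaving out any other array lowers both.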

How the data were processed

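Root RNA of 9 samples, 3 from each of 3 fixation tubes, was labelled with biotin and hybridized to AraGene 1.0 ST arrays of 1 colour. The authors made the log2 values they deposited with RMA in oligo, per the submitters' processing notes, which also name limma, R 4.0.0 and the build TAIR10. The table holds 38408 probe sets with values of 0.0515 to 13.8. Of these 16722 name 1 gene, 759 several, and 20927 have no name in the table used. The 16722 gave 16550 genes, and for 146 genes with several probe sets the one with the highest mean was kept. Of the 16722, 16574 matched the gene table, which belongs to another release and served for names and neighbours alone. The array number limits the precision.

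A model of the 3 groups was fitted with limma 3.58.1 in R 4.3.3, with 6 residual and 3.89 prior degrees of freedom. P-values were adjusted by Benjamini-Hochberg over 16550 genes, and calls were made at an adjusted p below 0.05. Figures used Python 3.11.15, pandas 2.3.3 and matplotlib 3.10.9. The fit was tested on simulated data for last-actuated against ground. Of 67 genes given a log2 change of 0.5 it found 20.9%, of 67 given 1 it found 73.1% and of 66 given 2 it found 95.5%. There were 4 false calls, and 0 where nothing was changed. The simulated noise was independent between genes and arrays, with 1 SD per gene for all 3 groups. Changes were given only to genes above the lower quartile of gene means. The deposited arrays differ from this setting, since the spread was unequal between groups and the ground arrays were strung out. These percentages and counts may therefore not hold for the deposited arrays, which was not tested.

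Gene lists and members were chosen with earlier results of these data known. There were 15 lists of nuclear genes by locus, plus the chloroplast-encoded genes. The mitochondrion-encoded genes were matched by symbol. The chromosome 2 loci, gene clusters, 14 nuclear photosynthesis genes and 14 protein quality control genes outside the lists were gathered after values were seen. Named were the 15 largest called rises and falls, up to 4 called members of each list by p or else 1 uncalled member, and up to 6 genes also called against first-actuated roots. Other named genes were chosen after their values were seen. Promoter motifs were not analysed here. Alternatives were another quantile normalization, cyclic loess, filters on low levels, moderation with trend, the replicate number as a block, array weights, only the groups compared, means over a gene's probe sets, tests on every probe set, and each array left out in turn.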

Additional observations from a re-analysis of the deposited data

Results flagged for a closer look

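Genes named above were set between the flight tubes by the test of that difference itself, last-actuated minus first-actuated roots, and those listed here passed it at an adjusted p under 0.05 (limma). Among genes higher than ground, the log2 difference was -2.22 for AT1G72760, -1.76 for AT5G07330, -1.31 for AT1G44414, -1.26 for AT1G52870, -1.21 for AT5G42150, -1.16 for AT1G50110 and -1.11 for AT5G66090. It was -0.87 for AT1G11660, -0.83 for AT5G51740, -0.80 for AT4G21323, -0.77 for AT4G27680, -0.76 for AT1G52560, -0.76 for AT4G23040, -0.74 for DER1 and -0.68 for AT4G15420. It was -0.63 for AT1G67360, -0.60 for AT3G07150, -0.56 for AT4G13550 and -0.52 for AT4G33666. These genes stood between the other tubes, below first-actuated and above ground roots. Among genes lower than ground it was -1.64 for AT4G27657, -0.93 for AT2G07689, -0.90 for psaB, -0.76 for AT1G77610 and -0.61 for orfX. Genes higher than both other tubes were AT5G42200 at 1.56, AT3G25719 at 1.17, DI21 at 1.14, AT1G02610 at 1.07, AT2G25980 at 0.70 and TET5 at 0.58. Genes not called against ground were GH3.3 at -1.04, STZ at -0.99, EXPA18 at -0.90, AT4G34150 at -0.87, AT1G19530 at 0.82 and AT4G27450 at 1.00.

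Probe sets without a single gene name, which the comparisons above do not use, also held differences. When every probe set was tested, 145 of 21686 such probe sets (0.669%) were called between last-actuated and ground roots, 69 higher and 76 lower, against 82 (0.495%) of the probe sets of the named genes in the same fit. Their log2 differences reached 4.32 and -2.58.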

How the results depend on the processing

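Against 151 called genes (96 higher, 55 lower) and 371 against first-actuated roots, leaving out each array in turn gave 53 to 508 (41 to 240 higher, 8 to 268 lower) and 100 to 495. The highest counts against ground came without ground replicate 2, and the lowest in all without last-actuated replicate 3. With genes above the median level the counts were 255, 149 and 106, with only the 2 groups compared 28, 27 and 1, and with every probe set tested 82, 59 and 23 (231 against first-actuated roots). Array weights gave 597 against first-actuated roots. No called gene changed sign under the alternatives run. Among named genes that were not called, the log2 difference changed sign for 5 when 1 array was left out, with ranges of -0.042 to 0.39 for AT2G21640, -0.0054 to 0.022 for LHCB4.1, -0.27 to 0.13 for STZ, -0.0029 to 0.15 for AT4G34150 and -0.054 to 0.20 for EXPA18. Samples of the same replicate number did not deviate together, with correlations of 0.0066, 0.055 and -0.11 between last-actuated and ground roots. With the replicate number as a block, 109 genes were called, 77 higher and 32 lower. The cause of these shifts was not tested. The number of arrays limits the precision, and without detection calls a dim level cannot be told from background.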

Other observations

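Large differences that did not pass the test were mostly falls, in genes whose ground arrays spread widely. Of genes not called, 103 had a log2 difference of -1 or lower and 12 of 1 or higher. Ground replicate 1 was the highest ground array for 98 of the 103 and ground replicate 2 the lowest for 99, while ground replicate 1 was the highest for 32.7% of all genes. AT2G20835 was at 1.28, 1.07 and 1.26 in last-actuated roots, against 6.63, 1.16 and 5.31 in ground roots (-3.16, limma, adjusted p = 0.247). AtLEA4-1, a late embryogenesis abundant protein gene, was at 2.10, 1.59 and 2.15 against 6.40, 1.76 and 5.50 in ground roots. AT2G47780 was at 2.29, 1.90 and 2.13 against 7.10, 1.57 and 5.86, and AT3G47650 (BSD2), which helps Rubisco assemble, at 4.78, 5.00 and 4.94 against 8.83, 5.47 and 7.73 in ground roots. In the first 3 of these, ground replicate 2 was at the level of the last-actuated arrays or below and ground replicates 1 and 3 were more than 3 log2 units higher. First-actuated arrays were low too, at 1.16 to 1.35 for AT2G20835, 1.79 to 2.13 for AtLEA4-1 and 1.98 to 2.32 for AT2G47780. In these 3 genes only ground replicates 1 and 3 were high.

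Among called protein-coding genes, 3 pairs were direct neighbours in the gene table, and both members of each were higher in last-actuated roots. Besides HSA32 and AT4G21323, these were AT4G33660 and AT4G33666 (1.42 and 1.01) and AT4G23040 and AT4G23050 (0.63 and 0.77), whose annotated spans do not overlap. The call of AT4G23050 was lost without last-actuated replicate 2 or 3, first-actuated replicate 1 or ground replicate 1 or 3 (limma, adjusted p up to 0.117).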
